A study of Mus musculus with 13 samples.

Results

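The 4 mouse Hox clusters were examined for peaks of Sox9, an HMG-box transcription factor on which cartilage formation depends. A peak counted as a member when its centre lay in 1 of 4 windows on mm9. These were HoxA at chr6:52090000-52230000, HoxB at chr11:96040000-96240000, HoxC at chr15:102740000-102880000 and HoxD at chr2:74490000-74620000. The windows cover 610 kb and held 13 peaks of the 45096 in the rib and nasal lists together. All 13 were rib peaks, 9 in HoxA and 4 in HoxC, out of 27656 rib peaks. None of the 17440 nasal peaks lay in a window. The rib list is labelled unfiltered and the nasal list is not, and whether both were filtered alike was not checked here. All comparisons of rib with nasal peaks rest on these lists being comparable.

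The series profiled chromatin by ChIP-seq, which sequences the DNA fragments that an antibody pulls down. The rib library came from enzyme-digested rib chondrocytes at postnatal day 1 and the nasal library from nasal septum chondrocytes at embryonic day 17.5, both from untreated wild-type ICR mice, with the same Sox9 antibody. There was 1 Sox9 library per tissue, so no comparison has a replicate check and no p-value is given. Tissue and stage differ together between the libraries and cannot be told apart. Since the lists hold only coordinates, neither read depth nor peak height is known, and intervals and limits below cover counting error only. Each rib peak belongs to Class I or Class II, the submitters' own split, which the sources used here do not define. No list shows the other libraries of the series, so expression, histone marks, RNA polymerase II and input in the Hox clusters were not analysed here. Whether the cells were chondrocytes could not be checked against marker levels in position lists.

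Hox genes encode homeodomain transcription factors that give cells their place along the head-to-tail axis. Within a cluster the genes lie in the order in which they are used, with those at the 3′ end active nearest the head and those at the 5′ end active in the trunk, tail and distal limbs. The nasal septum derives largely from cranial neural crest that lies in front of the Hox-expressing territory. Ribs derive from thoracic somites, where Hox genes of the middle groups are active and help to set rib number and shape. This is textbook background and was not measured here.

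The windows were matched to 38 listed Hox genes, and all 38 lie on the chromosome of their window in RefSeq GRCm38.p6. HoxA has 10 of them, HoxB 10, HoxC 9 and HoxD 9. In that assembly the order of the listed genes by rising coordinate runs from Hoxa2, a gene of hindbrain and the second pharyngeal arch, to Hoxa13, a gene of digits and genital tract. It runs from Hoxb13 to Hoxb1, from Hoxc13 to Hoxc4 and from Hoxd13 to Hoxd1 in the others. Gene positions on mm9 were not used here, so each peak is given by its distance from the low-coordinate edge of its window and none is assigned to a gene.

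The bases under the peaks need an mm9 genome and are not printed. To show the regulatory sequence of the clusters, the promoters of the listed genes were searched for the SOX core letters ACAAT, read on both strands. RefSeq GRCm38.p6 promoters of 300 bases, from 250 before to 50 after a gene start, were given for 22 of the 38 genes, 24 promoters in all. The letters stood in 7 of the 24, or 29.2%, beside 31% of all 32851 promoters. By cluster they stood in 4 of 10 promoters in HoxA, 0 of 3 in HoxB, 1 of 1 in HoxC and 2 of 10 in HoxD. The longer form AACAAT, also read on both strands, every match of which also holds ACAAT, stood in 0 of the 24 and in 10.7% of all promoters. A match is a description of letters, not a Sox9 site, and no peak was placed at these promoters. The HoxA matches with 30 bases on each side before the gene start are shown because HoxA held most of the Sox9 peaks, and the match of Hoxd8 because HoxD held none. Capitals mark the match, which reads as the reverse complement where it lies on the other strand, and each stretch is read along the gene's strand.
Hoxa2, GRCm38.p6 chr6:52164867-52164931, minus strand: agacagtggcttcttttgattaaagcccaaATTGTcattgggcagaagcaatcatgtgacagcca
Hoxa3, GRCm38.p6 chr6:52213078-52213142, minus strand: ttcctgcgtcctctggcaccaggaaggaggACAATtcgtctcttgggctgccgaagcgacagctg
Hoxa5, GRCm38.p6 chr6:52204760-52204824, minus strand: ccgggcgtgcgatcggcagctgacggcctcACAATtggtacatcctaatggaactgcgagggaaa
Hoxd8, GRCm38.p6 chr2:74704471-74704535, plus strand: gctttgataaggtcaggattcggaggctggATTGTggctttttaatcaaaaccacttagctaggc
The matches began 70 bases before the start in Hoxa2, 45 in Hoxa3, 207 in Hoxa5 and 114 in Hoxd8. The Hoxa3 stretch lies at higher coordinates than that of Hoxa5, so this Hoxa3 start lies beyond the Hoxa5 start. The 10 HoxA promoters belong to 9 genes, so a gene can have more than 1 start. These positions belong to GRCm38.p6 and cannot be set beside the mm9 positions of the peaks. The match of Hoxa7 lay at the far edge of its promoter, and those of Hoxc4 and Hoxd10 after the gene start.

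Rib chondrocytes had Sox9 peaks in HoxA and HoxC, and nasal chondrocytes had none in any of the 4 clusters. Of the 13 rib peaks, 0 shared a base with a nasal peak, which allows a share of up to 23.1%, whereas nasal peaks met 42.8% of the whole rib list. In the flanks, stretches as long as each window on both of its sides, nasal peaks met 4 of 16 rib peaks, or 25.0% (95% exact Clopper-Pearson interval 7.27% to 52.4%). Of these 4, 3 lay below HoxB, a window without a rib peak, and 1 below HoxC. Beside HoxA, 0 of 5 rib peaks were met. A difference in overlap between windows and these flanks was not detectable. That reading depends on flank length, as over 500 kb on both sides the share was 57.7% (46.0% to 68.8%), carried by HoxC and HoxB. Rib peaks made up 13 of the 13 peaks in the windows, or 100% (exact interval 75.3% to 100%). They made up 61.3% of both whole lists and 66.7% (44.7% to 84.4%) of the 24 peaks in the flanks. The interval of the windows lay above the share of the lists and overlapped the interval of the flanks. Neighbouring peaks are not independent, so these intervals are too narrow. Rib peaks had a density of 21.3 per Mb in the windows and 11.4 per Mb over the autosomes. The nasal density was 0 in the windows, which allows up to 4.92 per Mb, and 7.21 per Mb over the autosomes.

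**Figure D1:**
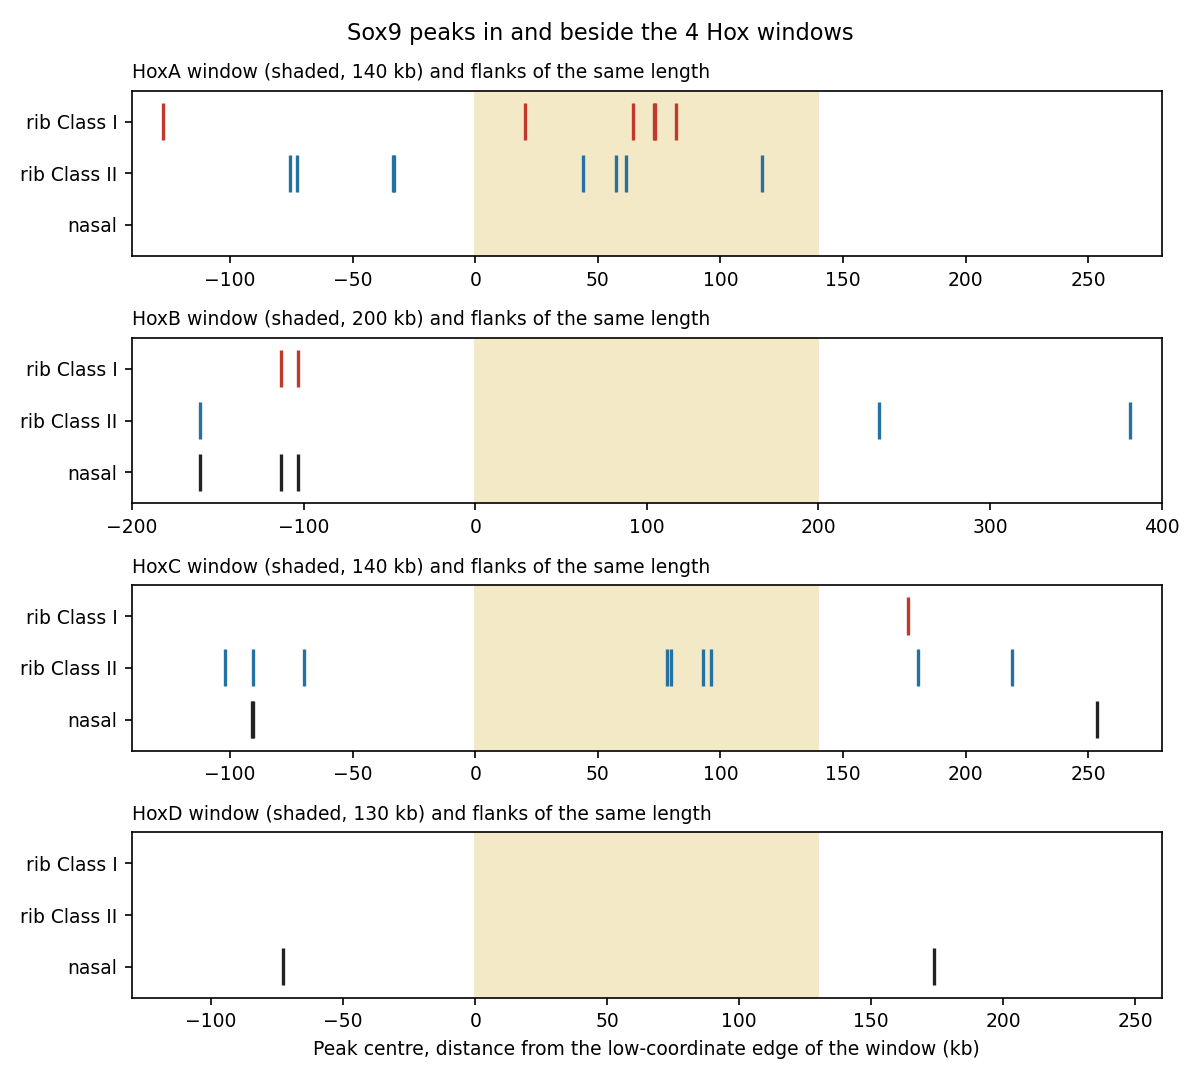
Sox9 peaks in the 4 Hox windows (shaded) and in flanks as long as each window, by distance of the peak centre from the low-coordinate edge (kb). Each line is 1 peak of rib Class I, rib Class II or the nasal list. The nasal row is empty inside all 4 windows, while HoxA holds 9 rib peaks and HoxC 4.

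HoxA, whose genes pattern the hindbrain and pharyngeal arches at one end and the limb and genital tract at the other, held the most peaks. It had 9 rib peaks and 0 nasal peaks, and its rib density was 64.3 per Mb. At the density of chromosome 6 as a whole a window of 140 kb would have held 1.54 rib peaks and 0.924 nasal peaks. A count of 0 nasal peaks in this window alone is therefore near the average, and the number of rib peaks is above it. The 2 counts were seldom found together. Of 18288 stretches of 140 kb in the genome, 436 had at least 9 rib peaks. Of these, 2 had no nasal peak, the one at HoxA among them. The cutoff of 9 is the count of HoxA itself. With the stretches moved by 70 kb, 5 of 442 had no nasal peak.

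The HoxA peaks ran from 20.2 to 117 kb above the low edge, the side of Hoxa2. The first was a Class I peak of 160 bp at chr6:52110195-52110354, and the last a Class II peak of 190 bp at chr6:52207066-52207255. Between them, 6 peaks formed a chain of 24.4 kb at chr6:52147388-52171794, with gaps of 0.267 to 8.36 kb. Its peaks began 57.4, 61.6, 64.3, 72.8, 73.3 and 81.6 kb above the edge and were 148, 117, 158, 182, 278 and 214 bp wide. The chain held 4 Class I and 2 Class II peaks and no nasal peak. Over the genome there were 447 chains of 5 or more rib peaks with gaps of up to 10 kb, and 5.15% of these had no nasal peak in them. Of the 248 chains with at least 6 rib peaks, 6 had none, or 2.42%, the HoxA chain among them. The cutoff of 6 is the count of that chain itself.

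The peak of the windows that stood earliest in the rib list lay in this chain, 64.3 kb above the low edge at chr6:52154321-52154478. It held place 3230 of 27656, and place 280 of the 6794 Class I peaks. Nasal peaks met 90.3% of Class I peaks in its bin, 1 of 10 stretches of the list with equal numbers of rib peaks. The widest HoxA peak was a Class II peak of 317 bp at chr6:52133945-52134261, a width that 7.64% of rib peaks reach. The closest pair lay 267 bp apart, at chr6:52162837-52163018 and chr6:52163286-52163563, and both of its peaks were Class I.

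Class I peaks were found in HoxA and not in HoxC. It held 5 of the 9 HoxA peaks, or 55.6% (exact interval 21.2% to 86.3%), and 0 of the 4 HoxC peaks, which allows up to 75%. Class I made up 24.6% of the whole rib list. The interval for HoxA includes that share, so the difference from the list was not detectable with 9 peaks. The limit for HoxC lies above that share, so no difference was detectable with its 4 peaks either. Both clusters together had 5 Class I and 8 Class II peaks.

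HoxC, whose middle genes such as Hoxc6, Hoxc8 and Hoxc9 are active in the thoracic region and whose high-coordinate end is that of Hoxc4, held 4 Class II peaks in 2 pairs. The first pair spanned 2.14 kb at chr15:102817989-102820130, with a gap of 1.74 kb, and the second 3.65 kb at chr15:102832567-102836220, with a gap of 2.85 kb. All 4 began between 78.0 and 95.7 kb above the low edge, and the other 12 of the 14 stretches of 10 kb in the window were without a peak. HoxA had peaks in 7 of 14 such stretches, and at most 2 peaks in one.

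The last HoxC peak, chr15:102835733-102836220, was 488 bp wide and the widest of the 13. Only 0.249% of rib peaks are as wide, and the rib median was 180 bp. It stood late in the list, at place 25258. The earliest HoxC peak was chr15:102832567-102832882, at place 7908 and 316 bp wide. The other members were 139 and 265 bp wide and stood at places 21256 and 22626. HoxC rib density was 28.6 per Mb, against 12.4 per Mb on chromosome 15, where 1.74 rib peaks and 1.13 nasal peaks would fall in a window of this length. Of 18288 stretches of 140 kb in the genome, 2741 held at least 4 rib peaks, so the HoxC count was not unusual.

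HoxB and HoxD held no peak of either list. HoxB carries genes from Hoxb1, a gene of the hindbrain, to Hoxb13, a gene of the tail and prostate, and HoxD carries Hoxd9 to Hoxd13, which pattern the limb. At the density of chromosome 11 the HoxB window would have held 3.25 rib peaks and 2.27 nasal peaks, and at that of chromosome 2 the HoxD window 1.54 and 0.988. Tiles without a peak were common. Of the 200 kb tiles on chromosome 11, 27.8% held no peak of either list, and of the 130 kb tiles on chromosome 2, 44.1%. An empty window is thus not unusual for either length, and no difference between rib and nasal lists was detectable there.

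The stretches without a rib peak around these windows were longer than the windows. The interval around HoxD ran for 989 kb, chr2:74000630-74989563, and 1.38% of rib-free intervals are as long. Long intervals are more likely to contain a given window, and intervals at least this long hold 32.6% of all rib-free length. The HoxD interval contained 2 nasal peaks, at chr2:74416957-74417175 below the window and chr2:74663753-74663957 above it, 72.8 and 43.8 kb from the window's edges. Around HoxB the rib-free interval was 338 kb, chr11:95937111-96274916, a length that 4.85% of such intervals reach. Intervals at least that long hold 52.9% of rib-free length, so neither stretch is unusual by length. The HoxB interval held no nasal peak.

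Nasal peaks were missing well beyond HoxA, and on the full lists the rib peaks there were more numerous than in any other nasal-free interval. The interval between the nasal peaks on both sides of HoxA, chr6:51938615-52590277, was 652 kb long. It held 17 rib peaks, 5 below the window, 9 in it and 3 above it, of which 6 were Class I. Among the 17248 intervals between neighbouring nasal peaks this was the highest count, and the next held 15. Intervals with at least that many made up 0.0058%, which is 1 of 17248, the HoxA interval itself, and restates its rank. The rank rests on peaks late in the rib list. With the rib list shortened by place to the length of the nasal list, the interval held 7 rib peaks, 33 intervals held at least as many and the highest held 13. In length it was not extreme, as 4.26% of nasal-free intervals are as long, and these hold 51.5% of nasal-free length.

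The interval around HoxC, chr15:102649512-102993687, was 344 kb long and held 8 rib peaks, 1 of them Class I, a count that 0.684% of intervals reach. The interval around HoxB was 529 kb long and held 2 rib peaks, both above the window, and 24.1% of intervals hold as many. The interval around HoxD was 247 kb long and held none. The order of the 4 clusters by count of rib peaks in nasal-free surroundings was therefore HoxA, HoxC, HoxB and HoxD. These counts and shares were not adjusted for the lengths of the intervals, which ran from 247 to 652 kb.

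**Figure D2:**
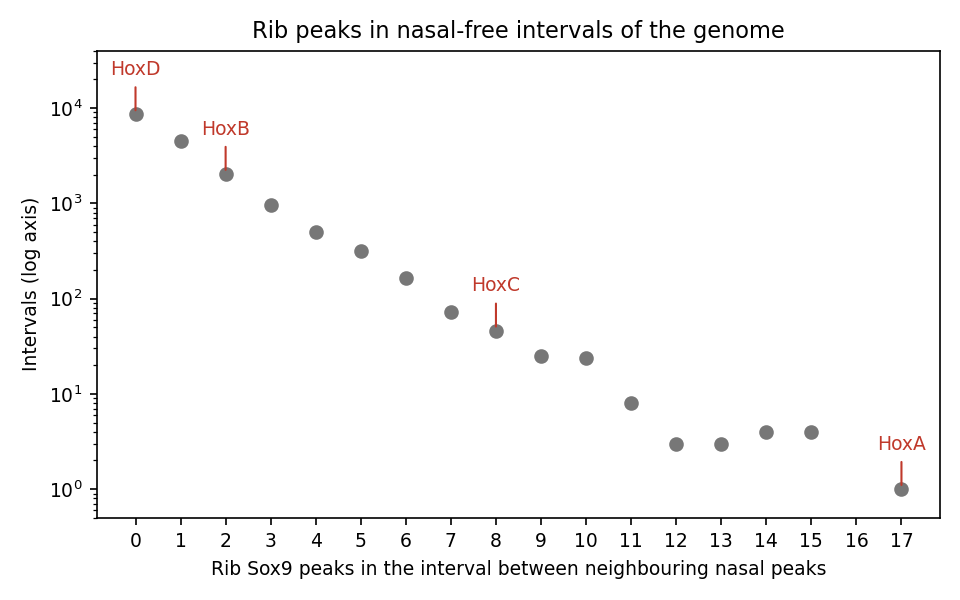
Number of rib Sox9 peaks (horizontal axis) in each interval between neighbouring nasal peaks, and number of such intervals in the genome (vertical log axis). Names mark the intervals that contain the Hox windows, and HoxA stands alone at 17 rib peaks on the full lists, with the next highest interval at 15. Intervals of all lengths are counted together.

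The distance from each rib peak to the nearest nasal peak shows the same stretch from the side of the peaks. In HoxA it ran from 172 to 268 kb, with a median of 216 kb, and in HoxC from 157 to 170 kb. The median over the whole rib list was 1.03 kb. Peaks at least 157 kb from a nasal peak made up 5.86% of the rib list, and peaks at least as far as the nearest HoxA peak 5.3%. For Class I such distances were rarer. Of the 6794 Class I peaks, 78, or 1.15%, lay at least 172 kb from a nasal peak. That cutoff is the smallest distance among the 5 Class I peaks of HoxA, so these 5 are among the 78 by construction. Their distances all run to the same nasal peak, so they are not 5 separate observations. The other cutoffs here were likewise taken from the Hox peaks. For Class II, 7.3% of peaks were as far as the nearest Class II peak of the windows.

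Tiles of the same length gave the genome-wide background for each window. A tile with at least 5 peaks was called rib-rich when its ratio of rib to nasal peaks, with 0.5 added to each count, was at least 2 times the ratio of the whole lists. HoxA, with 9 rib peaks and no nasal peak, came to 12.0 times that ratio and was called rib-rich, as were 7.38% of 3629 tiles of 140 kb. In the first 50% of each list by place HoxA held 3 rib peaks and no nasal peak, 4.41 times the ratio of those lists and too few for a call. Nasal-rich tiles, at most 1/2 of the ratio of the lists, made up 13.4%. HoxC came to 5.68 times the ratio with 4 rib peaks and no nasal peak, under the minimum of 5 for a call. HoxB and HoxD, without peaks, could not be called. The backgrounds at their lengths were 8.16% rib-rich and 11.9% nasal-rich tiles at 200 kb, and 6.96% and 14.3% at 130 kb.

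Few tiles resembled HoxA. Of the 436 tiles of 140 kb with at least 9 rib peaks, 2 had no nasal peak, or 0.459%. The HoxA tile was one of them, and the other lay on chromosome 17 at 39900001 to 40040000, with 11 rib peaks. With the tiles moved by 70 kb, 5 of 442 such tiles had no nasal peak. Tiles with at least 5 Class I peaks numbered 173, and 1.16% of them held no nasal peak. The cutoffs of 9 and 5 here, and of 4 below, are the counts of the Hox windows themselves. The HoxA tile is therefore part of its own background of 436. The HoxC pattern was more frequent. Of the 2741 tiles with at least 4 rib peaks, 4.96% had no nasal peak. Among tiles with exactly as many rib peaks as the window, the share without a nasal peak was 11.1% of 823 for HoxC and 0.826% of 121 for HoxA.

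**Figure D3:**
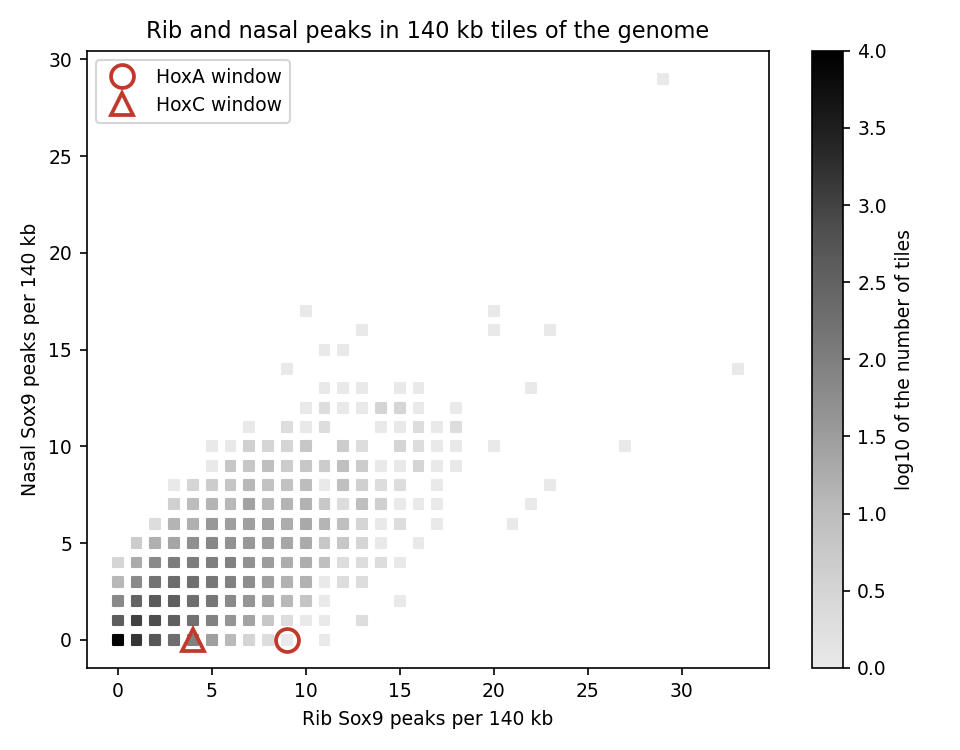
Rib and nasal Sox9 peaks in all 140 kb tiles of the genome (squares, shaded by the log10 number of tiles) with the HoxA window (circle) and the HoxC window (triangle). HoxA sits on the horizontal axis at 9 rib peaks and 0 nasal peaks, where nearly all tiles with as many rib peaks also hold nasal peaks.

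The place of the peaks in the rib list bears on how often a nasal peak is to be met, because overlap falls along the list. The sources used here do not say what that order means. The 13 peaks stood between places 3230 and 26383, with a median of 18325. The 5 Class I peaks of HoxA held places 3230, 11731, 18325, 18502 and 26383. Nasal peaks met 90.3%, 76.2%, 63.4%, 63.4% and 49.0% of Class I peaks in the bins of these places, and 0 of these 5, which allows up to 60%. Over all of Class I, nasal peaks met 68.8%, a share above that limit. The 5 peaks are not independent, as 4 lie in the HoxA chain and all 5 have the same nearest nasal peak. The limit is therefore too low, and no difference from Class I is read from it.

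For the 8 Class II peaks of HoxA and HoxC, the shares in their bins were lower and ran from 10.2% to 43.6%, with 34.4% over all of Class II. A missing overlap is thus common for Class II peaks placed as these are, and less so for Class I. In the order of the list, the peak at place 3230 was number 36 among the 2117 Class I peaks without a nasal overlap.

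**Figure D4:**
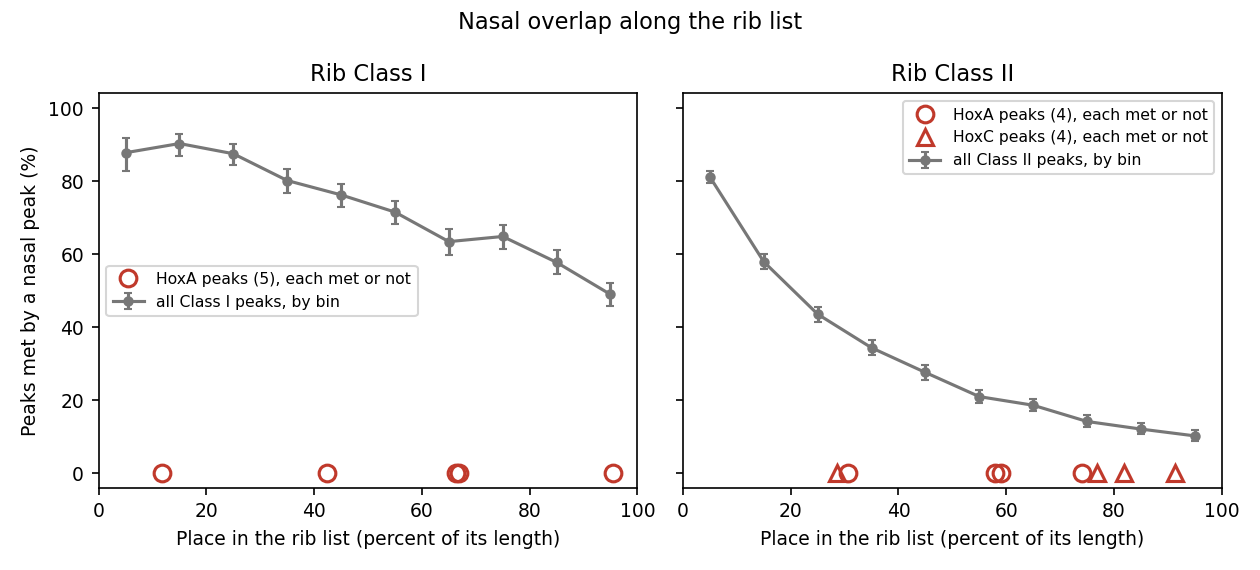
Share of rib peaks met by a nasal peak (vertical axis, percent) by place in the rib list (horizontal axis, percent of its length), for Class I and Class II, as points for 10 bins of the list with 95% exact intervals. Circles (HoxA) and triangles (HoxC) at 0 mark the 13 Hox peaks, none of which was met, from place 3230 to place 26383.

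Closest surroundings differed between the clusters. The flank of 140 kb below HoxA held 5 rib peaks, 1 of them Class I, and no nasal peak, while the flank above it held no peak. The flank of 200 kb below HoxB held 3 rib peaks and 3 nasal peaks, and all 3 rib peaks were met by a nasal peak. The flank above HoxB held 2 rib peaks and no nasal peak. Beside HoxC, 3 rib and 2 nasal peaks lay below the window and 3 rib peaks and 1 nasal peak above it. Beside HoxD, each flank held 1 nasal peak and no rib peak. Over 500 kb on both sides of all 4 windows, nasal peaks met 45 of 78 rib peaks, or 57.7% (46.0% to 68.8%), a share carried by HoxC, with 27 of 39, and HoxB, with 13 of 22. Beside HoxA, 3 of 13 rib peaks were met, or 23.1% (5.04% to 53.8%), and beside HoxD 2 of 4.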

How the data were processed

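Values came from 4 lists of Sox9 peaks that the authors deposited as chromosome, start and end, on mm9 per the submitters' processing notes. For aligner, peak caller, threshold, control library and class definition, each was not given in the sources used here. Chondrocytes were fixed with 1% formaldehyde for 10 minutes, 20000000 per reaction, per the labels' protocols. Starts were raised by 1. A rib peak was called met when a nasal peak covered at least 1 of its bases. Shares carry 95% exact (Clopper-Pearson) intervals, and a count of 0 was read as allowing 3. Tiles ran from the first to the last occupied tile of each chromosome. Windows and lists were chosen with earlier results of these data known. The named regions were, by rule, the chains, the first, last, widest and earliest-listed rib peak of each window and any nasal peak. Other places named, such as the closest pair, the intervals and their bounding nasal peaks, and the comparisons by interval, chain and distance were added after the values were seen. Routines tested on simulated lists found 1000 of 1000 planted overlaps and 200 of 200 tiles planted rib-rich with 9 peaks. Those tiles held no nasal peak, so their call was fixed by the rule. It checks the code, not how reliable a call is. Python 3.11.15, numpy 2.4.6, scipy 1.17.1 and matplotlib 3.10.9 were used. The share of nasal peaks met in the windows had no value, because none lay there.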

Additional observations from a re-analysis of the deposited data

How the results depend on the processing

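Since no nasal peak lay within 20 kb of the windows and no Class I peak within 20 kb of HoxC, the rib share of 100%, the met share of 0 and the 0 Class I peaks of HoxC could not change under the settings run, which says nothing about their stability. What changed was the number of rib peaks behind the rib share. It fell from 13 to 6 with the rib list as long as the nasal list and to 4 in the first 50% of each list, where HoxA held 5 and 3 and HoxC 1 and 1. In the first 50% of the rib list, the Class I share was 66.7% of 3 peaks in HoxA. HoxB and HoxD held no peak under the settings run. HoxC was called rib-rich with a minimum of 3 peaks, and HoxA could not be called with a minimum of 10 or in the first 50% of each list. Of 30 recomputed values for tiles, 15 stayed within 1.5 times of the reported value, and the other 15 follow from the thresholds. At a fold of 1.5, rib-rich tiles made up 16.7%, 17.1% and 18% at 130, 140 and 200 kb, and nasal-rich tiles 29.6%, 29.9% and 27.9%. At a fold of 3 they made up 2.36%, 2.29% and 2.89%, and 1.33%, 1.32% and 1.17%. With a minimum of 10 peaks, nasal-rich tiles made up 7.41%, 7.05% and 6.3%. Alternatives chosen after seeing the data changed the counts around HoxA. Its nasal-free interval held 7 rib peaks with the rib list as long as the nasal list and 4 in the first 50% of the rib list, where 33 and 182 intervals held as many. Moved tiles gave 5 in place of 2 with at least 9 rib peaks and no nasal peak. No paired analysis was possible because each group had 1 library. Without depth or scores, whether the nasal library could detect peaks at these places was not tested.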
